A study of Mus musculus with 6 samples.

Results

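The neuromuscular junction is the synapse at which a motor nerve ending drives a skeletal muscle fibre. Acetylcholine released by the nerve opens a receptor channel built of α, β and δ subunits together with γ in fetal or denervated muscle or ε in adult muscle. Nerve-derived agrin acts through LRP4 and the kinase MuSK, which with DOK7 and rapsyn gathers the receptors under the nerve ending, and acetylcholinesterase, anchored by the collagen tail ColQ, ends the signal. The genes followed here were the 5 subunits of the muscle-type receptor (*Chrna1*, *Chrnb1*, *Chrnd*, *Chrne* and *Chrng*), 3 genes of receptor clustering (*Musk*, *Dok7* and *Rapsn*) and 2 genes of acetylcholine breakdown (*Ache* and *Colq*). They were found by their symbols, all 10 of them among the 47729 genes in the files.

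RNA was measured in brown adipose tissue (BAT) of 6 wild type male C57BL/6J mice, 3 fed a high-fat diet with 45% fat (HFD) and 3 fed a standard rodent diet, titled LFD, from 6 to 10 weeks of age. Each library came from the right interscapular depot of 1 mouse, and the mice of each diet were picked for the greatest, medium and least fat mass. Which replicate number belongs to which of them is not given in the sources used here.

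The libraries held 17156991 to 21603487 rounded counts, and 3 counts, taken as the detection floor, corresponded to 0.139 to 0.175 CPM (counts scaled to library size). Values of single mice are given below in the order of replicates 1, 2 and 3. Of 12 brown adipocyte markers, all had counts in every mouse, with a summed level of 1822 to 6191 TPM (a level per gene length, scaled to a fixed total per mouse) in HFD-fed and 888 to 3757 TPM in LFD-fed mice. *Ucp1*, the uncoupling protein of brown fat, named after its values were seen, was lowest in LFD replicate 2, with 11.03 TPM, against 75.98 and 442.99 TPM in the other LFD-fed mice and 796.07 to 4020.78 TPM in HFD-fed mice. Not all brown adipocyte markers followed it. In TPM, LFD replicate 2 was the highest LFD-fed mouse for *Prdm16* and for *Adipoq* and *Ppargc1a*, also named after their values were seen. In log2 CPM, LFD replicate 1 was the highest and LFD replicate 3 the lowest LFD-fed mouse for each of them. The summed TPM of the markers was lowest in LFD replicate 3. At an unadjusted p under 0.05 in edgeR, *Prdm16* and *Dio2*, a regulator of brown fat identity and the deiodinase of thermogenic fat, were higher in HFD-fed mice (log2 fold changes 1.3 and 2.00, adjusted p = 0.351 and 0.476 by edgeR), and *Lhx8* was lower (-1.43, adjusted p = 0.241). The 15 skeletal muscle markers (*Acta1*, *Ckm*, *Myh1*, *Myh2*, *Myh4*, *Myl1*, *Mylpf*, *Tnnt3*, *Tnni2*, *Tnnc2*, *Actn3*, *Ryr1*, *Atp2a1*, *Casq1* and *Pygm*), all of them contractile, calcium-handling or energy genes of muscle fibres, summed to 84.3, 237 and 18.6 TPM in the HFD-fed mice and to 6014, 14336 and 2062 TPM in the LFD-fed mice. All 15 had counts in every mouse, and for each of them the highest HFD-fed mouse was below the lowest LFD-fed mouse. LFD replicate 2 had the highest summed muscle markers and the lowest *Ucp1*, and the differences between diets are given with and without it. In bulk tissue, fewer cells of a type and less RNA per cell cannot be told apart.

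Promoters of the junction genes are a classic setting for 2 motifs, the E-box CANNTG that myogenic factors such as myogenin bind and the N-box CCGGAA that is linked to expression at the synapse. Promoter sequences were found in RefSeq (GRCm38.p6) for 7 of the 10 genes, covering 250 bases before to 50 bases after a start site. The sequences of *Chrna1*, *Chrng*, *Chrne* and *Musk* are shown because they hold the E-box form CAGCTG, and because *Chrng* and *Chrne* are the fetal and adult alternatives. Capitals mark matches to CANNTG (which includes CAGCTG) and to CCGGAA on either strand.
Chrna1, chr2:73580289-73580588, minus strand: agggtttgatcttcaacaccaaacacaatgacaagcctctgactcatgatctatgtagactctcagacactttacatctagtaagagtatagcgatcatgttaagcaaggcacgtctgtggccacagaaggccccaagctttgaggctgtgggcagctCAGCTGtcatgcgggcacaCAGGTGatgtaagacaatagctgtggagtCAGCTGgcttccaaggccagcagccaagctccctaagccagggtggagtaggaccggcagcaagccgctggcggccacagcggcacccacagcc
Chrng, chr1:87205561-87205860, plus strand: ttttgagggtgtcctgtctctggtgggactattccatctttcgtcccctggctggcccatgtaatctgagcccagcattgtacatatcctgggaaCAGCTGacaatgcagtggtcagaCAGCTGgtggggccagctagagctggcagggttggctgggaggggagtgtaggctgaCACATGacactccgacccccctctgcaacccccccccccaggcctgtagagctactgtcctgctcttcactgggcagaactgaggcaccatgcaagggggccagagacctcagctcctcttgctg
Chrne, chr11:70619145-70619444, minus strand: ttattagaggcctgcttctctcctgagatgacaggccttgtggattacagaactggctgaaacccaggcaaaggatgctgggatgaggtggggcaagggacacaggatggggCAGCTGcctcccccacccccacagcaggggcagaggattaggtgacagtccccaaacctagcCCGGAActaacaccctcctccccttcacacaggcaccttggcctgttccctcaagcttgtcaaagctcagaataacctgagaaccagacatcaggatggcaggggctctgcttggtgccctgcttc
Musk, chr4:58285712-58286011, plus strand: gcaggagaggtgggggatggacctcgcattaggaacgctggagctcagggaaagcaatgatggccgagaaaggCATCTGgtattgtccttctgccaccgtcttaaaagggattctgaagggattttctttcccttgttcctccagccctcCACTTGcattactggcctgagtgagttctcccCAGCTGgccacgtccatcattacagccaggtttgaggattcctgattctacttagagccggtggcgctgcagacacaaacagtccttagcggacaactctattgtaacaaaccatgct

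*Chrna1* and *Chrng* each held CAGCTG at 2 positions, starting 92 and 44 bases and 155 and 132 bases before the start site, while *Musk* and *Chrne* each held it at 1 position. CCGGAA was found once, in *Chrne*, starting 76 bases before the start site. Among all 32851 promoter windows of the same length, 72.3% held CANNTG, 16.3% CAGCTG and 14.9% CCGGAA on either strand. *Chrnb1*, *Ache* and the first of 2 start sites of *Dok7* had CANNTG but neither of the other motifs, and the other *Dok7* window had none of the 3. These matches describe the letters of the windows and not bound sites.

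The comparison of interest was the level of the junction genes in BAT between the diets. All 10 genes had a higher mean TPM in LFD-fed than in HFD-fed mice. In edgeR, 54.4% of all tested genes had a negative log2 fold change of HFD over LFD. The counts of *Chrng*, scaled by normalized library size, were higher in HFD-fed mice once LFD replicate 2 was left out. No gene passed the call, for which edgeR's quasi-likelihood test had to give an adjusted p below 0.01 together with a log2 fold change beyond 1.5 in either direction. Only 6 of the 10 were tested, since *Chrnd*, *Chrne*, *Chrng* and *Colq* did not reach the level of 10 counts per median library in 3 mice. *Musk* and *Dok7* reached that level in 3 LFD-fed but only 1 HFD-fed mouse, so they were tested because of the diet in which they were high. Of all 17668 tested genes, the share called lower in HFD-fed mice was 0% (smallest adjusted p = 0.170 in edgeR). At an unadjusted p under 0.05, edgeR gave 1851 genes in all, with 6.62% of tested genes lower, among them 3 junction genes (*Chrna1*, *Musk* and *Dok7*). DESeq2 called 1.53% of its genes lower, of which *Musk* was the 1 junction gene. The median log2 fold change of the 6 tested genes was -2.61, against -0.05 for all tested genes, and -1.40 without LFD replicate 2.

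**Figure D1:**
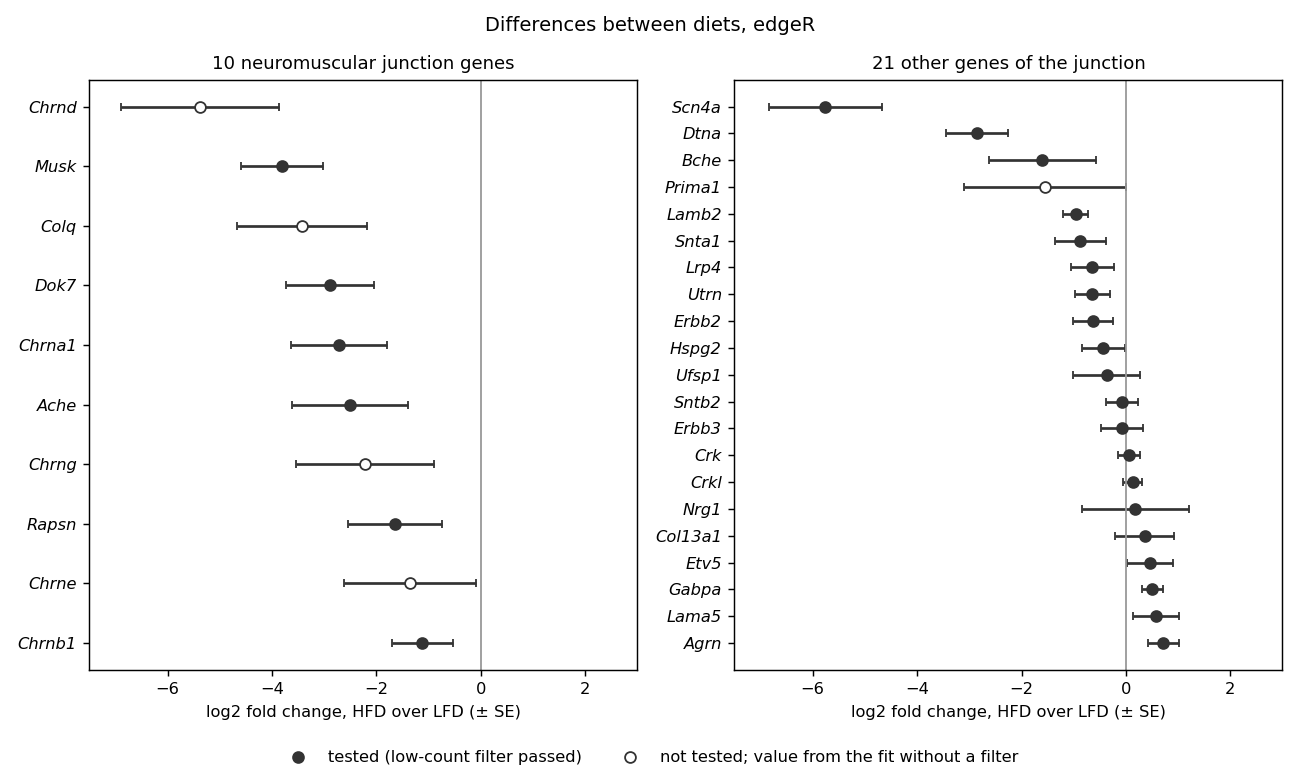
Log2 fold changes of HFD over LFD from edgeR with standard errors, for the 10 junction genes (left) and 21 other genes of the junction (right); filled points were tested and open points, from a fit without a low-count filter, were not. All 10 points on the left lie below 0, from -5.38 for Chrnd to -1.12 for Chrnb1, while the points on the right spread from -5.76 for Scn4a to 0.72 for Agrn.

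*Chrna1* (ENSMUSG00000027107, chromosome 2 from 73563215 to 73580338, positions in GRCm38 here and for the genes that follow), the subunit that carries the main acetylcholine binding surface, stood at 0.11, 0.17 and 0.41 TPM in the HFD-fed mice. In the LFD-fed mice it reached 0.29, 4.39 and 0.97 TPM. LFD replicate 2 was far above the other mice, and HFD replicate 3 exceeded LFD replicate 1, so the diets overlapped in TPM. In TMM-normalized log2 CPM they did not overlap, the nearest mice being at 0.51 and 0.59. EdgeR gave a log2 fold change of -2.71 with a standard error of 0.92 and an adjusted p of 0.378. Without LFD replicate 2 it was -1.21 (adjusted p = 0.744 by edgeR).

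*Chrnb1* (ENSMUSG00000041189, chromosome 11 from 69784036 to 69795943), the β subunit present in both fetal and adult receptors, was the subunit least concentrated in LFD replicate 2. The HFD-fed mice had 0.47, 1.64 and 2.10 TPM, against 1.75, 6.73 and 2.10 TPM in the LFD-fed mice. HFD replicate 3 and LFD replicate 3 were level, although the summed muscle markers of these mice were 18.6 and 2062 TPM. Its log2 fold change, -1.12 ± 0.58 (SE) with an edgeR adjusted p of 0.567, was the closest to 0 of the tested junction genes, and it was -0.45 without LFD replicate 2.

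*Chrnd* (ENSMUSG00000026251, chromosome 1 from 87190607 to 87200070), the δ subunit, was found in LFD-fed mice almost alone. Its rounded counts were 0, 1 and 0 in the HFD-fed mice and 3, 51 and 3 in the LFD-fed mice. Of the 57 LFD counts, 51 came from replicate 2. Summed over a diet and scaled by TMM-normalized library size, the ratio of LFD over HFD was 61.7. Its exact 95% counting interval of 10.6 to 2480 does not include the spread between mice. Without LFD replicate 2 the ratio was 10.3 (1.25 to 472), from 6 counts against 1.

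*Chrng* and *Chrne* encode the γ and ε subunits, which replace each other when the fetal receptor gives way to the adult receptor. *Chrng* (ENSMUSG00000026253, chromosome 1 from 87204657 to 87212694, next to *Chrnd*) had 6, 7 and 4 rounded counts in the HFD-fed mice and 0, 79 and 4 in the LFD-fed mice. LFD replicate 2 was the only mouse with more than 7 counts, and the other 2 LFD-fed mice lay within or below the HFD range. The ratio of LFD over HFD was 5.29 (counting interval 3.11 to 9.5) with that mouse and turned to 0.403 (0.0986 to 1.23) without it. *Chrne* (ENSMUSG00000014609, chromosome 11 from 70614883 to 70619216) had 0, 2 and 3 counts in HFD-fed and 4, 8 and 0 counts in LFD-fed mice. Its ratio of LFD over HFD was 2.60 with a counting interval of 0.852 to 9.41, and 1.37 (0.272 to 6.36) without LFD replicate 2, so a difference between the diets was not detectable at this depth.

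Per gene length, the fetal subunit was above the adult subunit in LFD replicate 2, with 2.44 TPM of *Chrng* against 0.38 TPM of *Chrne*. Of the 87 counts of the pair in this mouse, 90.8% were *Chrng* (exact 95% interval 82.7% to 95.9%). LFD replicate 1, which had the second highest muscle markers, had 0 of 4 counts from *Chrng*, with an exact interval of 0% to 60.2%. These intervals do not overlap. The other 4 mice had 4 to 9 counts of the pair each, of which 57.1% to 100% were *Chrng*, too few to order these mice.

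*Musk* (ENSMUSG00000057280, chromosome 4 from 58285960 to 58374303), the receptor tyrosine kinase at the centre of the clustering pathway, showed the widest gap between the diets in log2 CPM. Its level was 0.04, 0.21 and 0.10 TPM in the HFD-fed mice and 0.72, 4.57 and 1.14 TPM in the LFD-fed mice. All 3 HFD-fed mice were below the lowest LFD-fed mouse in TPM and in log2 CPM. The edgeR log2 fold change of -3.81 ± 0.79 (SE) had an adjusted p of 0.177, and without LFD replicate 2 it was -2.84 (adjusted p = 0.423). DESeq2 gave -3.82 with an adjusted p of 1.36e-04, which passed the call. Blocked on the replicate number, edgeR gave -3.66 with an adjusted p of 0.0398, which did not. At an adjusted p under 0.05 that blocked fit held 0.877% of tested genes as lower in HFD-fed mice.

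*Dok7* (ENSMUSG00000044716, chromosome 5 from 35056766 to 35087839), the adaptor that activates MuSK from inside the cell, was also lower in every HFD-fed mouse. HFD-fed mice had 0.07, 0.29 and 0.05 TPM and LFD-fed mice 1.16, 2.38 and 0.55 TPM. *Dok7* was the least concentrated of the 10 genes in LFD replicate 2, and edgeR gave -2.89 ± 0.84 (log2 fold change, SE) with an adjusted p of 0.311. Leaving that mouse out gave -2.39.

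*Rapsn* (ENSMUSG00000002104, chromosome 2 from 91035620 to 91045729) encodes rapsyn, which links the receptors to one another. HFD-fed mice had 0.54, 0.51 and 0.54 TPM, and LFD-fed mice 0.76, 4.42 and 0.72 TPM. In TPM the HFD-fed mice were nearly level, whereas their rounded counts were 18, 7 and 13 and their log2 CPM 0.17, -1.20 and -0.61. By edgeR the log2 fold change was -1.64 ± 0.90 (SE) with an adjusted p of 0.603, and -0.33 without that mouse. In log2 CPM, HFD replicates 1 and 3 were above LFD replicate 3, so the diets overlapped on that scale but not in TPM.

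*Ache* (ENSMUSG00000023328, chromosome 5 from 137287519 to 137294466), the enzyme that splits acetylcholine, stood at 0, 0.31 and 0.16 TPM in the HFD-fed mice and 0.61, 3.56 and 0.39 TPM in the LFD-fed mice. The diets were apart in TPM and overlapped in log2 CPM, where HFD replicate 2 at -0.38 was above LFD replicate 3 at -0.65. EdgeR gave -2.50 ± 1.11 (log2 fold change, SE) at an adjusted p of 0.499, and -1.58 without LFD replicate 2. *Colq* (ENSMUSG00000057606, chromosome 14 from 31523082 to 31591343) had 3, 0 and 1 rounded counts in HFD-fed and 2, 40 and 6 counts in LFD-fed mice. The ratio of LFD over HFD was 13 (counting interval 4.76 to 49.6), and 3.42 (0.917 to 15.5) without LFD replicate 2. *Colq* shares 5.23% of its exonic bases with *Gm49387* on the same strand, the largest such overlap among the 10 genes.

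**Figure D2:**
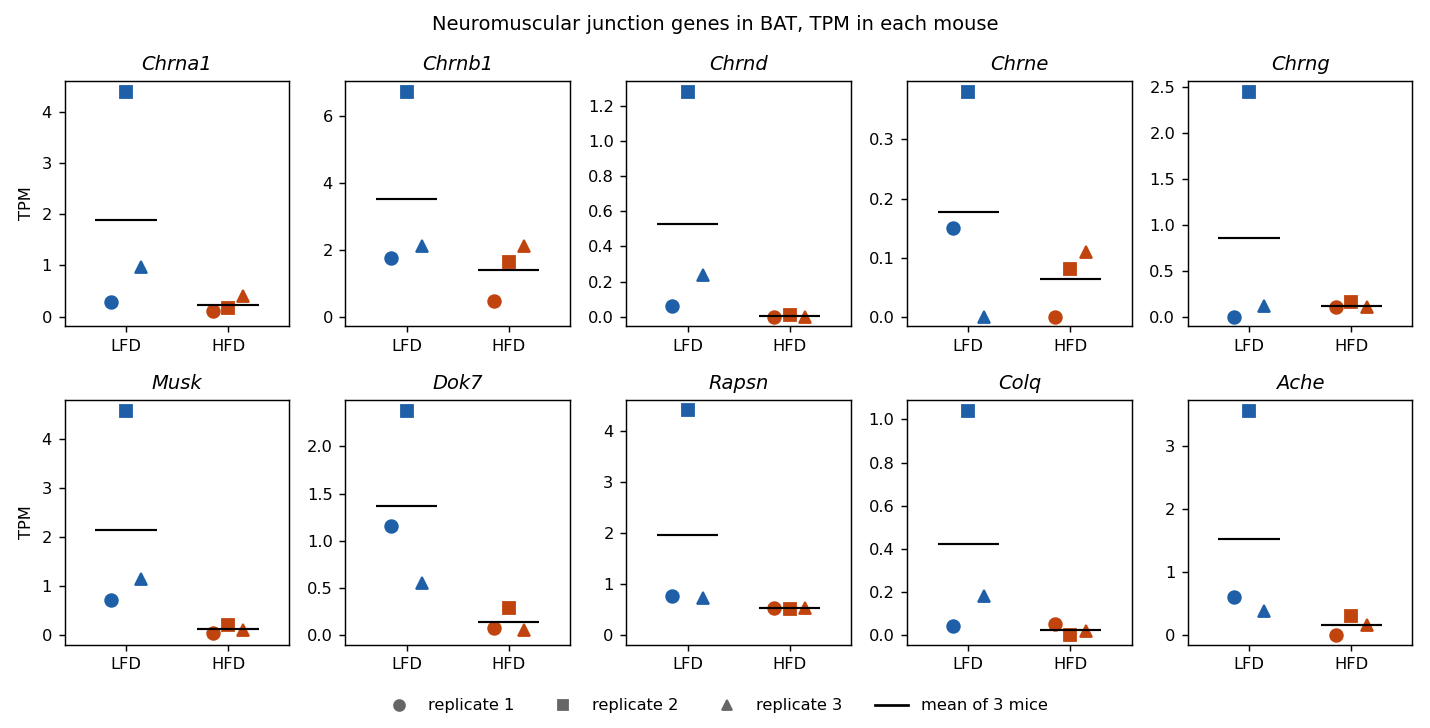
TPM of the 10 junction genes in each mouse, with a panel and its own linear scale per gene; blue is LFD, red is HFD, the shape gives the replicate number and the line the mean of 3 mice. LFD replicate 2 (square) is the highest mouse in all 10 panels.

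Per gene length, the order of the means in LFD-fed mice was *Chrnb1* (3.53 ± 2.78 TPM, SD, n = 3), *Musk* (2.14 ± 2.11), *Rapsn* (1.97 ± 2.12), *Chrna1* (1.88 ± 2.20), *Ache* (1.52 ± 1.77), *Dok7* (1.36 ± 0.932), *Chrng* (0.853 ± 1.38), *Chrnd* (0.527 ± 0.659), *Colq* (0.420 ± 0.541) and *Chrne* (0.177 ± 0.191). Each SD was larger than the step to the next gene. The genes were measured in the same mice, however, so these SDs do not measure the spread of a difference between genes. *Chrnb1*, for example, was above *Musk* in each LFD-fed mouse. Differences between neighbours in this order were not tested. In HFD-fed mice, *Chrnb1* was again the highest at 1.40 ± 0.840 TPM (SD, n = 3), followed by *Rapsn* at 0.530 ± 0.0173 TPM. The other 8 genes had means of 0.230 TPM or less, with *Musk* at 0.117 ± 0.0862 TPM and *Chrnd* lowest at 0.00333 TPM.

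In log2 CPM, 3 of the 6 tested genes (*Chrna1*, *Musk* and *Dok7*) were lower in each HFD-fed mouse than in any LFD-fed mouse. This separation held for 9.23% of all tested genes. *Musk* and *Dok7* were tested only because of the diet in which they were high, so no enrichment can be read from these shares. Without LFD replicate 3, all 6 were lower in each HFD-fed mouse. The share of all tested genes in that setting was not computed. Separation is easier to reach with fewer LFD-fed mice, so nothing about the junction genes can be read from this count. That mouse had the lowest summed muscle markers of the LFD-fed mice, and its log2 CPM of *Rapsn*, *Ache* and *Chrnb1* lay inside the HFD range.

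The LFD signal was unevenly shared. Of the TPM summed over the 3 LFD-fed mice, replicate 2 held between 58.2% (*Dok7*) and 95.3% (*Chrng*) for each of the 10 junction genes. For the 15 skeletal muscle markers it held 60.7% to 74.6%, and LFD replicate 1 held more than LFD replicate 3 for 14 of the 15. Between these latter mice the junction genes had no common order. LFD replicate 3 was above LFD replicate 1 for 6 of 10 genes in TPM but for 3 (*Chrna1*, *Chrng* and *Colq*) in log2 CPM, and *Chrng* and *Colq* had at most 6 counts in these mice. *Chrna1* had 22 counts in LFD replicate 1 and 50 in LFD replicate 3, while *Musk* had 42 and 40.

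A list of 10 genes of denervated and embryonic muscle was read beside these shares, and the 9 of them reported here did not behave alike. LFD replicate 2 held 35.9% (*Runx1*) to 95.9% (*Myh3*) of their LFD signal. For 4 genes (*Myh3*, *Myh8*, *Myog* and *Myod1*) its share was 88.9% or more, above the range of the muscle markers, for *Ncam1* it was inside that range, and for *Runx1*, *Dach2*, *Hdac4* and *Gadd45a* it was 59.2% or less, below the range. Of these, all but *Myh8*, *Runx1*, *Hdac4* and *Gadd45a* were named after their values were seen. *Myh3* had 0, 31.58 and 1.34 TPM and *Myog* 0.04, 7.43 and 0.65 TPM in the LFD-fed mice, the same order of mice as *Chrna1*. In HFD-fed mice, *Myh3* and *Myog* had 1 rounded count each over all 3 mice and *Myod1* had 0. Of the 119 counts of *Myod1* in LFD-fed mice, 105 were in replicate 2. Of the 10 genes, 6 were tested and 0 were called by edgeR, 1 (*Myh8*, log2 fold change -4.43, adjusted p = 0.427) at an unadjusted p under 0.05, and DESeq2 called 2. Without LFD replicate 2 the value for *Myh8* was -0.47 (adjusted p = 0.913 by edgeR). The log2 fold changes of *Runx1*, *Hdac4* and *Gadd45a*, the most abundant genes of the list, were 0.38, -0.49 and -0.62 (adjusted p = 0.909, 0.533 and 0.779 by edgeR).

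**Figure D3:**
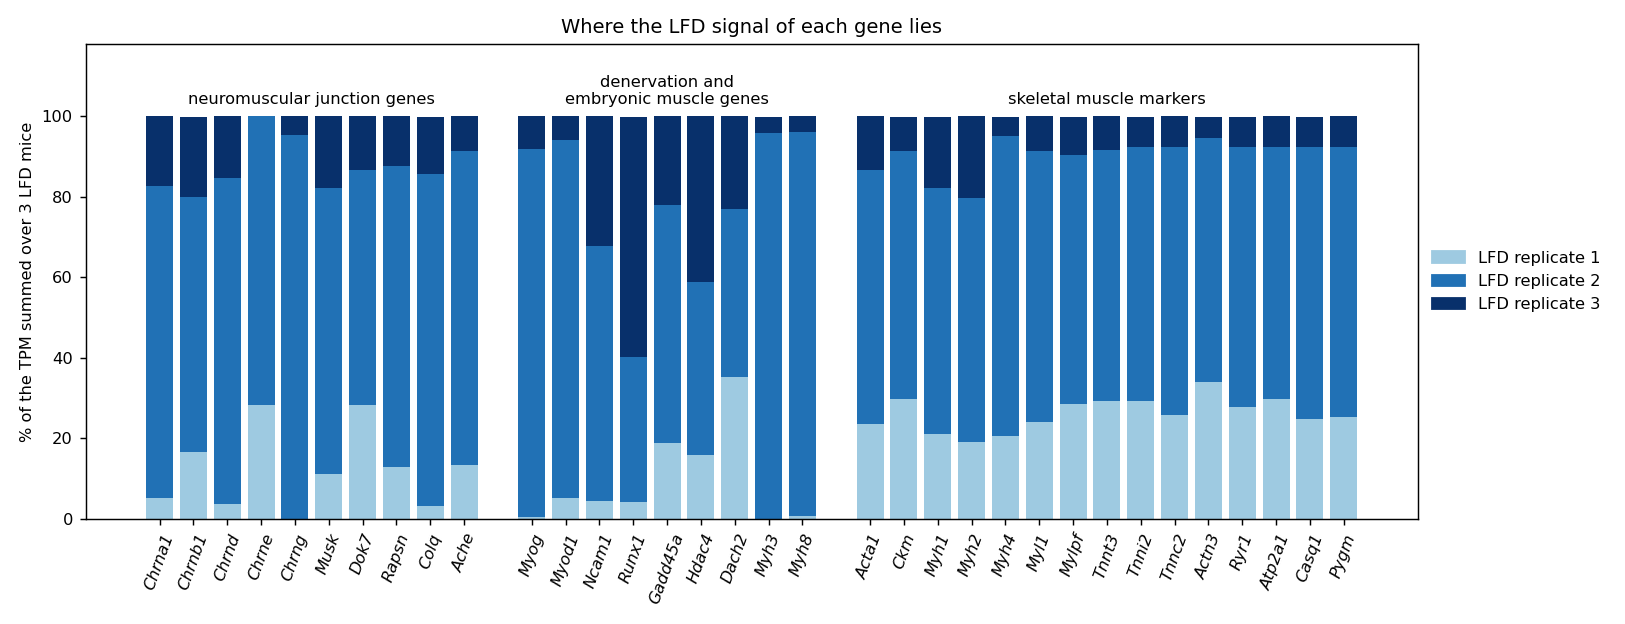
Share of the TPM summed over the 3 LFD-fed mice that lies in each mouse, for the 10 junction genes, 9 genes of denervated and embryonic muscle and 15 skeletal muscle markers; the bar segments stand for LFD replicates 1, 2 and 3 from the bottom. Replicate 2 holds 58.2% to 95.3% of each junction gene, 35.9% to 95.9% of the denervation and embryonic genes and 60.7% to 74.6% of the muscle markers.

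The skeletal muscle markers differed more between the diets than the junction genes. Their median log2 fold change was -6.19 (-6.61 to -3.95, edgeR adjusted p between 0.170 and 0.348), against -2.61 for the 6 tested junction genes. Without LFD replicate 2 the medians were -5.59 and -1.40. EdgeR called 0 of the 15, with all 15 at an unadjusted p under 0.05, and DESeq2 called 15. The part of these markers in the values of the junction genes was not tested. To set both in the same mouse, the TPM of a junction gene was divided by the summed TPM of the 15 markers. This could be done for the 5 genes with a TPM above 0 in every mouse. Relative to the markers, *Chrnb1* had 5.57, 6.91 and 113 TPM per 1000 TPM in the HFD-fed mice and 0.291, 0.469 and 1.02 in the LFD-fed mice. For *Chrna1* these ratios were 1.3, 0.717 and 22 in HFD-fed and 0.0482, 0.306 and 0.470 in LFD-fed mice.

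The direction of the ratios was opposite to that of the levels. It follows from the larger difference of the markers between the diets, given above. The permutation tests of the ratios therefore add no separate evidence for this direction. The ratios of *Chrna1*, *Chrnb1*, *Dok7* and *Rapsn* were higher in each HFD-fed mouse than in any LFD-fed mouse, by 3.84, 4.98, 2.77 and 4.95 on the log2 scale (exact two-sided permutation p = 0.1 each, the smallest p that 3 mice against 3 allow, and 0.125 after Benjamini-Hochberg adjustment over 5 genes). *Musk* had the smallest difference between the diets of the 5 genes, with 0.474, 0.885 and 5.36 per 1000 in HFD-fed and 0.120, 0.319 and 0.553 in LFD-fed mice. The ratios of *Dok7* varied less within each diet, at 0.83, 1.22 and 2.68 in HFD-fed and 0.193, 0.166 and 0.267 in LFD-fed mice. The ratios of *Musk* overlapped between the diets, with a difference of 2.25 on the log2 scale (exact two-sided permutation p = 0.2). Between mice of the same number, however, the *Musk* ratio was higher in the HFD-fed mouse in 3 of 3 pairs, as for the other 4 genes. HFD replicate 3, the mouse with the lowest markers, had the highest ratio for all 5 genes. It held 60 rounded counts of *Chrnb1* and 31 of *Chrna1* but 2 counts of *Ckm*, the muscle creatine kinase.

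**Figure D4:**
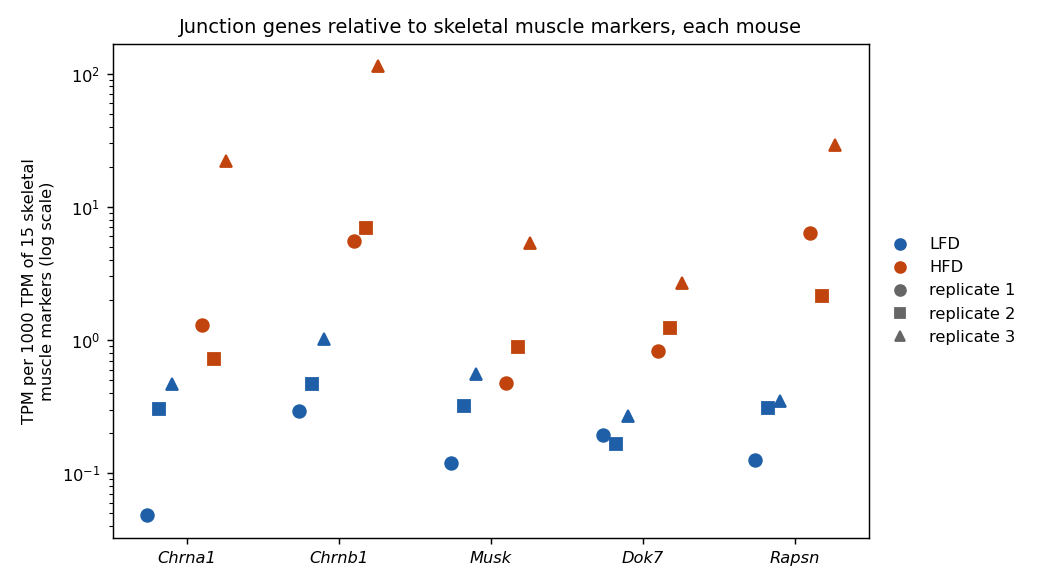
TPM of 5 junction genes per 1000 TPM of the 15 skeletal muscle markers in each mouse, on a log scale; blue is LFD, red is HFD and the shape gives the replicate number. The HFD points lie above the LFD points for Chrna1, Chrnb1, Dok7 and Rapsn, and overlap them for Musk, where HFD replicate 1 at 0.474 is below LFD replicate 3 at 0.553.

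A list of 21 other genes of the junction was spread on both sides of 0, with 12 of 20 tested genes negative and 8 positive and a median log2 fold change of -0.23. None was called by edgeR, 3 were lower and 2 higher in HFD-fed mice at an unadjusted p under 0.05 (a p reached by 3.86% of all tested genes in the higher direction), and DESeq2 called 2 lower (*Scn4a* and *Dtna*). *Scn4a*, the voltage-gated sodium channel of skeletal muscle, had 0.19, 0.40 and 0.02 TPM in the HFD-fed and 6.92, 23.92 and 3.75 TPM in the LFD-fed mice. EdgeR gave a log2 fold change of -5.76 (adjusted p = 0.173), and -4.93 (adjusted p = 0.423) without LFD replicate 2. *Scn4a* reached the low-count filter level in 3 LFD-fed but only 1 HFD-fed mouse, so it was tested because of the diet in which it was high. *Dtna*, which encodes α-dystrobrevin of the postsynaptic membrane, had a log2 fold change of -2.85 (adjusted p = 0.177 by edgeR), and -2.53 without that mouse. For *Lamb2*, a laminin chain of the synaptic basal lamina, it was -0.96 (adjusted p = 0.229 by edgeR) and -0.94. All 3 were lower in every HFD-fed mouse in TPM and in log2 CPM, the latter as were 9.23% of all tested genes. They were named for a low p in this direction, so the separation is no separate support.

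*Agrn* and *Gabpa* were on the other side. *Agrn*, the gene of agrin, had 9.40, 22.19 and 22.22 TPM in the HFD-fed and 5.99, 14.13 and 20.79 TPM in the LFD-fed mice, and its log2 fold change was 0.72 with LFD replicate 2 (edgeR adjusted p = 0.466) and 0.72 without it. In TPM the diets overlapped. *Gabpa*, a subunit of the factor that binds the N-box, had a log2 fold change of 0.51 (edgeR adjusted p = 0.446) and was higher in every HFD-fed mouse in log2 CPM, as were 6.72% of all tested genes, but not in TPM. DESeq2, which called 0.531% of its genes higher, called neither. The level of *Agrn* was thus above that of each muscle-type receptor subunit in every mouse of both diets. *Lrp4*, the agrin receptor named here as the partner of MuSK after its values were seen, had 0.77, 0.98 and 1.6 TPM in HFD-fed and 0.67, 2.89 and 1.89 TPM in LFD-fed mice, with a log2 fold change of -0.64 (edgeR adjusted p = 0.689), and -0.14 without LFD replicate 2.

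The genes outside the lists whose pattern over the 6 mice was nearest to that of *Musk* were *Cobl*, *Murc*, *Usp13*, *Cap2* and *Akap6*. Their root mean square differences from *Musk* in centred log2 CPM were 0.26 to 0.33, where the median of 15486 genes was 1.83. For *Chrna1*, the nearest were *Zdbf2*, *Sync*, *Igkc*, *Bves* and *Trim7*, at 0.54 to 0.62, where the median was 1.5. *Chrna1* thus had less close neighbours than *Musk*, and *Igkc* is an immunoglobulin light chain gene. With 6 mice, these distances describe likeness in these libraries only.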

How the data were processed

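Total RNA of BAT from 6 mice was sequenced after depletion of ribosomal RNA, with single-end 75-base reads. Per the submitters' processing notes and the methods of the study, the authors trimmed adapters (Trimmomatic 0.36) and estimated gene levels by RSEM 1.3.0 on GRCm38.p4 with Ensembl genes. The authors deposited an expected count, which is not normalized, for each gene and mouse. The deposited TPM values are expected counts divided by effective gene length and scaled to a fixed total per mouse.

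Expected counts were rounded. The test was edgeR 4.0.16 in R 4.3.3 (quasi-likelihood test, TMM, Benjamini-Hochberg adjustment over all tested genes), without covariates. Standard errors of edgeR log2 fold changes were derived as the absolute log2 fold change divided by the square root of the F statistic. Log2 CPM used a prior count of 2. Calls needed an adjusted p below 0.01 with a log2 fold change beyond 1.5 in either direction. Libraries held 17156991 to 21603487 rounded counts, and intervals on single counts cover counting error only. The replicates of a diet were separate libraries, with a chi-square of 78.1 to 606 per degree of freedom between their counts. Same-numbered mice of the 2 diets deviated together across 17668 genes (r = 0.229 to 0.522 in the 3 pairs), so an alternative fit took the number as a block. Ratios to skeletal muscle markers were compared by exact two-sided permutation tests. The alternatives were DESeq2 1.42.0, RLE size factors, no filter or a stricter filter on low counts, the block, removal of mitochondrially encoded genes, limma 3.58.1 on log2(TPM + 1), a looser threshold, another muscle denominator and each mouse left out. The edgeR fits with and without the block, DESeq2 and limma were tried on simulated counts first, but the permutation tests and exact intervals were not. The members and gene lists were chosen with earlier results of these data known. Beside the 10 members, genes named are those of each list with an unadjusted p under 0.05 or, with fewer than 3 of these, the 3 with the highest mean TPM, and the 5 genes nearest in pattern to *Chrna1* and to *Musk*; others are marked as chosen after their values were seen, and 2 genes of the lists are not reported here. Count ratios and values of the other lists without LFD replicate 2 were added after seeing the data. Positions are from GENCODE M21 (GRCm38) and promoter sequences from RefSeq (GRCm38.p6).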

Additional observations from a re-analysis of the deposited data

How the results depend on the processing

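Of 78 recomputed log2 fold changes of single junction genes, 77 kept their direction and stayed uncalled, and *Musk* was called with DESeq2. *Chrnd*, *Chrne*, *Chrng* and *Colq* entered this count only through DESeq2, and not through the fits with 1 mouse left out. All 40 recomputed ratios to the skeletal muscle markers kept their direction, which follows from the larger difference of the markers and is no separate support. Over all tested genes, DESeq2 called 412 genes (306 lower and 106 higher), limma on log2(TPM + 1) called 1 and the edgeR fit 0; DESeq2 also called 1 junction gene and 2 of the other genes of the junction, where edgeR called 0. The cause was not tested. The median log2 fold change of the tested junction genes was -0.94 on the log2(TPM + 1) scale, which understates changes of low genes, and between -3.01 and -1.40 with 1 mouse left out, the latter without LFD replicate 2. The number of junction genes lower in every HFD-fed mouse was 1 with at least 10 counts in every mouse, where only 2 of the 10 genes could be tested. It was between 3 and 6 with 1 mouse left out, the latter without LFD replicate 3. The shares of all tested genes in these settings were not computed. With 1 mouse left out, edgeR called 0 genes each time, and the log2 ratio to the muscle markers lay between 2.34 and 4.81 for *Chrna1*, 3.58 and 5.75 for *Chrnb1*, 1.23 and 2.98 for *Musk*, 2.30 and 3.15 for *Dok7* and 3.96 and 5.83 for *Rapsn*. Blocking on the replicate number (the pairing) changed no call; the median of the tested junction genes was -2.27 and the smallest adjusted p over all genes was 0.0102, with 3094 genes at an unadjusted p under 0.05 against 1851 without the block. Among the ratios of counts, computed without LFD replicate 2 as a choice made after seeing the data, *Chrng* turned from 5.29 to 0.403; the cause was not tested. Depth limits *Chrnd*, *Chrne*, *Chrng* and *Colq*, which had few counts outside LFD replicate 2.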

Other observations

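Nicotinic receptors of neurons use other subunits than those of muscle. Of 11 such genes, 3 were tested, and *Chrna9*, *Chrna6* and *Chrnb3* had no counts in any mouse. *Chrna10* had 0, 0 and 1 rounded counts in HFD replicates 1, 2 and 3 and 12, 48 and 10 counts in LFD replicates 1, 2 and 3, a ratio of LFD over HFD of 75.8 with an exact 95% counting interval of 13.2 to 3040, and of 37.7 (6.09 to 1550) without LFD replicate 2. It reached the low-count filter through the LFD-fed mice alone (edgeR adjusted p = 0.173), and was called by DESeq2 (adjusted p = 0.00246). LFD replicate 2 was again the highest mouse, as for the junction genes. *Chrnb2* went the other way, with 112, 134 and 136 rounded counts in HFD-fed and 64, 79 and 76 in LFD-fed mice (log2 fold change 0.69, edgeR adjusted p = 0.445), and its TPM values overlapped. *Chrna2* had a log2 fold change of 0.85 (edgeR adjusted p = 0.690).

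Of the genes of the cholinergic nerve ending, *Slc18a3* and *Chat* were below the floor in every mouse, and *Slc5a7* only in replicate 3 of each diet. *Slc18a3*, the vesicular acetylcholine transporter, had no counts, and *Chat*, the enzyme that makes acetylcholine, had 1 count in 1 mouse. Such RNAs lie mainly in the nerve cell body outside the depot, and the cause of the low counts was not tested. *Slc5a7*, the choline transporter, had 95, 12 and 1 rounded counts in HFD replicates 1, 2 and 3 and 63, 18 and 2 in LFD replicates 1, 2 and 3, so that same-numbered mice were close and the diets overlapped. Of 9 Schwann cell markers, 8 were tested and 0 were called by edgeR, with 2 (*S100b* and *Egr2*) higher in HFD-fed mice at an unadjusted p under 0.05 and 1 called higher by DESeq2. The log2 fold changes were 3.57 for *S100b* (edgeR adjusted p = 0.346) and 1.71 for *Egr2* (edgeR adjusted p = 0.215). *Mbp*, which encodes a myelin protein, had a log2 fold change of 0.22 (edgeR adjusted p = 0.924) and overlapped between the diets.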
